A study of Mus musculus with 4 samples.

Results

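The 77 genes described here encode mitochondrial ribosomal proteins, the subunits named Mrpl (large subunit) and Mrps (small subunit). They are the rows of the deposited table whose gene name starts with Mrpl or Mrps followed by a number, leaving out names that contain -ps, which mark pseudogenes. The table holds 48432 gene rows. All 77 genes had an estimate of status OK, a value above 0 in both groups and a mean of at least 5 FPKM, and all 77 passed the filter used below.

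The mitochondrial ribosome sits in the mitochondrial matrix and makes the few proteins that the mitochondrial genome encodes, which are core subunits of the respiratory chain and of the ATP synthase. Its RNA is made inside the organelle, while its proteins are encoded in the nucleus, made in the cytosol and imported. Some of its proteins have a bacterial homologue, and others are found only in mitochondrial ribosomes. Heart muscle depends on oxidative phosphorylation and is rich in mitochondria.

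The RNA came from heart muscle cells (cardiomyocytes) isolated by Langendorff perfusion from C57BL x FVB mice that had eaten a doxycycline diet for 3 days. The 4 libraries form a control group with the genotype label MHC (2 libraries) and a group labelled Rbfox2 OE (2 libraries), in which Rbfox2, whose protein binds RNA and controls splicing, was overexpressed. Both groups had the diet. The series title names the overexpressed form as the isoform of non-muscle cells, in the setting of myotonic dystrophy. The promoter of the transgene and the age and sex of the animals are not given in the sources used here, and nothing in them says whether the libraries of a group came from separate animals. The authors' table gives 1 value per gene and group, in FPKM (fragments per kilobase of transcript, scaled to library size), which pools the libraries of the group. Each value therefore has no replicate check, no test between the groups was possible, and every p-value is left out. The only error available is the lower and upper bound that the table gives for each value, whose level is not stated.

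Rbfox2 itself stood at 14.7 FPKM in MHC and 293 FPKM in Rbfox2 OE, the direction of the label. Markers of other cells were all higher in Rbfox2 OE, though some by little, such as Kdr with 23.0 and 23.5 FPKM. The bounds of the groups did not overlap for 5 of 8 fibroblast, 3 of 8 endothelial and 7 of 8 macrophage and leukocyte markers. The same held for 3 of 6 smooth muscle and pericyte and 4 of 5 red blood cell markers. The summed level of 8 fibroblast markers was 213 FPKM in MHC and 504 FPKM in Rbfox2 OE, that of 8 endothelial markers 468 and 721 FPKM, and that of 8 macrophage and leukocyte markers 109 and 376 FPKM. The summed level of 6 smooth muscle and pericyte markers was 140 and 319 FPKM, and that of 5 red blood cell markers 56.6 and 295 FPKM. Of 10 cardiomyocyte markers, Myh6 had no estimate in either group, and the other 9 summed to 51589 FPKM in MHC and 32804 FPKM in Rbfox2 OE, with 8 lower and Ttn higher. No defining marker of the other cell types was at 0 in either group. The part of these differences in the results below was not tested, and in such bulk samples fewer cardiomyocytes and less RNA per cardiomyocyte cannot be told apart.

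Most genes of the mitochondrial ribosome had a lower level in Rbfox2 OE than in MHC, by a small amount. Of the 77, 61 were lower (79.2%), where 53.8% of the 11697 expressed genes, those whose mean level was 1 FPKM or more, were lower. The median level was 47.7 FPKM in MHC and 36.1 FPKM in Rbfox2 OE. The median log2 ratio of Rbfox2 OE over MHC, computed after adding 1 FPKM to each value, was -0.31, and that of all 11697 genes was -0.06. Among expressed genes averaging 5 FPKM or more, as all of the 77 do, the median was lower, at -0.13. The share of lower genes at that level is not given here, so the 53.8% is not a background matched for level. The summed level of the 77 genes was 5115 FPKM in MHC and 4010 FPKM in Rbfox2 OE. In 50 of the 77 genes the log2 ratio lay between -0.5 and 0.5.

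A smaller set differed more. With a difference of 2-fold taken as a log2 ratio of 1 or more in either direction, 12 of the 77 (15.6%) were 2-fold lower in Rbfox2 OE, beside 10.02% of all expressed genes and 12.2% of those with a mean of at least 5 FPKM. None was 2-fold higher, beside 6.97% of all expressed genes and 6.54% of those with a mean of 5 FPKM or more. In 10 of the 77 (13.0%) the upper bound in Rbfox2 OE lay below the lower bound in MHC, so that the bounds were separate, beside 9.33% of all expressed genes and 10.9% of those with a mean of at least 5 FPKM. None had separate bounds in the other direction, beside 6.67% and 5.93%. At a threshold of 1.5-fold, 22 of the 77 (28.6%) were lower, beside 22.1% of all expressed genes, and none was higher, beside 16.6%. The shares of genes that were lower by these criteria are thus near the background. In all, 14 genes met at least 1 of the criteria and 8 met both.

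**Figure D1:**
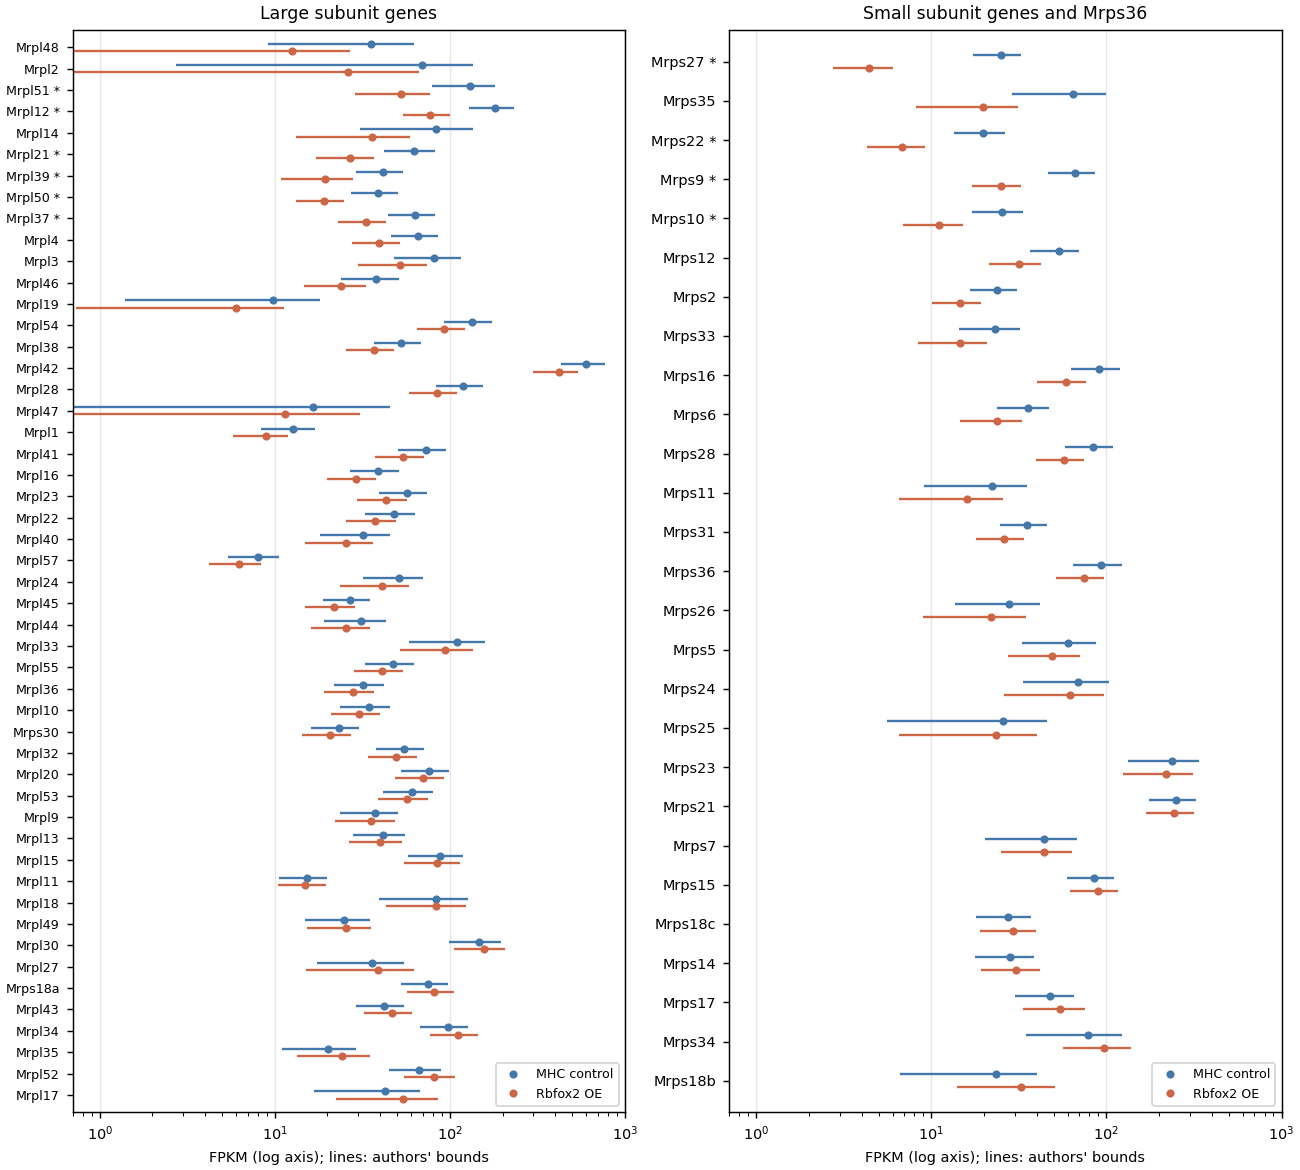
Level of each of the 77 Mrpl and Mrps genes in FPKM (x axis, log scale) in MHC and Rbfox2 OE, with horizontal lines for the authors' bounds (a bound of 0 is drawn to the axis edge) large-subunit genes on the left and small-subunit genes and Mrps36 on the right, each ordered by log2 ratio with the lowest at the top, and an asterisk for separate bounds. The values differ most in the top rows, where Mrps27 has 24.9 and 4.397 FPKM, though the bounds of Mrps35, Mrpl48 and Mrpl2 overlap there. The values nearly coincide further down (Mrps7, 44.1 FPKM in each group). They stand the other way in the bottom rows, where Mrps18b has 23.4 and 32.3 FPKM.

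Scale and gene position bear on these counts. When Rbfox2 OE was rescaled so that the sums without mitochondrial genes and the 10 most abundant genes were equal, which shifts log2 ratios by 0.16, the median of the 77 was -0.17, with 10 genes 2-fold lower and 6 with separate bounds. Then 49 of the 77 were lower (63.6%), beside 45.2% of all expressed genes, so 12 genes with ratios near 0 changed sign, among them Mrps21, Mrps23, Mrps7 and Mrpl11. Under that scaling 1060 of all expressed genes were 2-fold higher and 913 were 2-fold lower, beside 815 and 1172 in the deposited values. Their median log2 ratio was then 0.07. Separate bounds in the lower direction were then found for 823 of the 11697 expressed genes, beside 1091 in the deposited values. Cuffdiff can share fragments among the genes of a locus, and 9 of the 12 genes that were 2-fold lower are in loci the table assigns to several genes. Of the 38 Mrpl and Mrps genes in a locus of their own, 3 were 2-fold lower (7.89%, beside 9.20% of such genes in the table) and 4 had separate bounds (10.5%, beside 10.3%), while their median log2 ratio was -0.36. Of the 39 in shared loci, 9 were 2-fold lower (23.1%, beside 10.8% of such genes) and 6 had separate bounds (15.4%, beside 8.33%).

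The small subunit held the gene with the lowest ratio. Mrps27, a pentatricopeptide repeat protein found only in mitochondrial ribosomes, had 24.9 FPKM in MHC (bounds 17.3 to 32.5) and 4.397 FPKM in Rbfox2 OE (2.75 to 6.05), a log2 ratio of -2.26. Its bounds were far apart, and it was the only one of the 77 genes past a 4-fold threshold. The gene lies at chr13:99344786-99415562 on the plus strand of GRCm38, where the annotated gene 6430562O15Rik overlaps it on the opposite strand. None of its 50-base sequences occurs in another annotated transcript.

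A further 3 proteins of the small subunit had separate bounds and were 2-fold lower. Mrps22, found only in mitochondrial ribosomes, had 19.8 FPKM in MHC (bounds 13.5 to 26.2) and 6.76 FPKM in Rbfox2 OE (4.31 to 9.21), a log2 ratio of -1.43. Mrps9, which has a bacterial homologue, had 66.2 FPKM (46.6 to 85.9) and 24.9 FPKM (17.1 to 32.6), a log2 ratio of -1.38. Mrps10, another protein with a bacterial homologue, had 25.4 FPKM (17.2 to 33.6) and 11.02 FPKM (6.89 to 15.1), a log2 ratio of -1.13. Its ratio was -0.99 after rescaling and -0.92 with a pseudocount of 5 FPKM, short of 2-fold in both, with its bounds still separate. In these 3 genes the groups did not overlap within the bounds. Mrps35 had the second-lowest ratio of the 77, with 64.2 FPKM (28.9 to 99.5) in MHC and 19.7 FPKM (8.18 to 31.3) in Rbfox2 OE, a log2 ratio of -1.65. Its bounds are wide and overlap. Of the 26 small-subunit genes, 5 were 2-fold lower (19.2%) and 4 had separate bounds (15.4%), and their median log2 ratio was -0.37.

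In the large subunit, Mrpl12 was the most abundant of the genes with separate bounds. It forms part of the stalk that receives translation factors, and is also known to bind the mitochondrial RNA polymerase. It had 181 FPKM in MHC (bounds 129 to 232) and 77.3 FPKM in Rbfox2 OE (54.3 to 100.4), a log2 ratio of -1.21. Mrpl51, found only in mitochondrial ribosomes, had 131 FPKM (79.4 to 182) and 52.6 FPKM (28.6 to 76.5), a log2 ratio of -1.30. Here the bounds were separate by a narrow margin, and they overlapped after centring on the median expressed gene and after rescaling. Mrpl21, which has a bacterial homologue, had 62.4 FPKM (41.9 to 82.8) and 27.0 FPKM (17.1 to 37.0), a log2 ratio of -1.18.

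A further 3 large-subunit proteins, all found only in mitochondrial ribosomes, had separate bounds at smaller differences. Mrpl39 had 41.7 FPKM (29.3 to 54.2) in MHC and 19.4 FPKM (10.9 to 27.8) in Rbfox2 OE, a log2 ratio of -1.07. Mrpl50 had 38.9 FPKM (27.3 to 50.5) and 19.1 FPKM (13.3 to 24.96), a log2 ratio of -0.99. Mrpl37 had 63.1 FPKM (44.3 to 81.8) and 33.1 FPKM (22.9 to 43.2), a log2 ratio of -0.91. After rescaling, the bounds of all 3 overlapped, and those of Mrpl37 also after centring. Mrpl39 was short of 2-fold under other settings, at -0.92 after rescaling and -0.94 with a pseudocount of 5 FPKM, and the other 2 were short of it in the deposited values too. All 3 are alone in their locus of the table.

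For 3 large-subunit genes a 2-fold lower value came with bounds too wide to separate the groups. Mrpl48 had 35.6 FPKM (9.19 to 62.1) in MHC and 12.5 FPKM (0 to 26.7) in Rbfox2 OE, a log2 ratio of -1.44. Mrpl2, a conserved protein that lies by the catalytic centre of the ribosome, had 69.6 FPKM (2.72 to 136) and 26.4 FPKM (0 to 66.5), a log2 ratio of -1.37, in a locus that the table gives to 21 genes. Mrpl14, a conserved protein, had 83.1 FPKM (30.6 to 136) and 36.1 FPKM (13.2 to 58.9), a log2 ratio of -1.18. Of the 50 large-subunit genes, 7 were 2-fold lower (14%) and 6 had separate bounds (12%), 2 of them after rescaling, with a median log2 ratio of -0.31. By origin, the 46 genes with a bacterial homologue had a median of -0.26, with 6 genes 2-fold lower (13.04%) and 4 with separate bounds (8.70%). The 30 listed as found only in mitochondria, Mrps18a and Mrps18b among them, had a median of -0.37. In this list 6 (20%) were 2-fold lower and 6 (20%) had separate bounds, 2 of the latter after rescaling. Set beside the 12.2% and 10.9% of expressed genes with a mean of 5 FPKM or more, the shares of the large subunit and of the genes with a bacterial homologue are near the background. Those of the small subunit and of the genes found only in mitochondria are higher. They rest on counts of 4 to 6 genes, too small to read a difference from. The differences between these subgroups were not tested.

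No gene of the 77 was higher beyond its bounds. The highest ratio was that of Mrps18b, which had 23.4 FPKM (6.65 to 40.1) in MHC and 32.3 FPKM (14.02 to 50.6) in Rbfox2 OE, a log2 ratio of 0.45. Mrpl17 had 42.4 FPKM (16.8 to 67.9) and 54.0 FPKM (22.4 to 85.6), a log2 ratio of 0.34. Mrps34 had 78.4 FPKM (34.5 to 122) and 97.3 FPKM (56.4 to 138), a log2 ratio of 0.31, and shares 34.2% of its 50-base sequences with other annotated transcripts, most with Nme3. The bounds of all 3 overlap widely. Mrpl52 followed with 67.0 FPKM (45.1 to 88.9) and 81.0 FPKM (55.1 to 107), a log2 ratio of 0.27. Mrpl35 had 20.1 FPKM (11.02 to 29.2) and 24.1 FPKM (13.5 to 34.8), a log2 ratio of 0.25.

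Mrps18b is 1 of 3 paralogs related to a bacterial protein of the small subunit. Of these, Mrps18b and Mrps18c belong to the small subunit and Mrps18a to the large one. In the split by origin above, Mrps18c is listed with a bacterial homologue. Mrps18a and Mrps18b are listed there as found only in mitochondria, despite this relation. Mrps18a had 75.4 FPKM (52.6 to 98.2) in MHC and 81.5 FPKM (56.7 to 106) in Rbfox2 OE, a log2 ratio of 0.11. Mrps18c had 27.5 FPKM (18.1 to 36.9) and 29.3 FPKM (18.96 to 39.6), a log2 ratio of 0.09. All 3 paralogs were thus slightly higher with overlapping bounds in the deposited values, among the 16 genes of the 77 above 0.

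Subunits of a complex with 1 copy of most proteins per particle had levels that spanned a wide range. FPKM is given per length, so levels can be set side by side, but only roughly. The annotation behind the lengths is not given in the sources used here. Of the 77 genes, 39 lie in loci given to several genes, and 18 share over 5% of their 50-base sequences with other transcripts. In MHC, 62 of the 77 lay between 20 and 100 FPKM, 6 below and 9 above, and the highest was 74.5 times the lowest. In Rbfox2 OE the highest was 95.9 times the lowest. Mrpl42 stood far above the rest, with 597 FPKM (429 to 765) in MHC and 422 FPKM (300.3 to 543) in Rbfox2 OE, and made up 11.7% of the summed level in MHC. Mrps21 followed with 249 FPKM (174 to 324) and 242 FPKM (169 to 315), a log2 ratio of -0.04. Mrps23 had 235 FPKM (133 to 338) and 219 FPKM (124 to 313), and Mrpl30 had 147 FPKM (98.3 to 195) and 156 FPKM (106 to 206). The bounds of Mrps21 and Mrps23 overlap in each group, and those of Mrpl42 lie above both in MHC.

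At the low end, Mrpl57 had 8.01 FPKM (5.43 to 10.6) in MHC and 6.26 FPKM (4.20 to 8.33) in Rbfox2 OE. Mrpl19 had 9.76 FPKM (1.40 to 18.1) and 5.99 FPKM (0.730 to 11.2), and Mrpl1 had 12.7 FPKM (8.39 to 17.04) and 8.87 FPKM (5.76 to 11.98). Their bounds overlap with each other and between the groups. Mrps27 and Mrps22, described above, and Mrpl11, with 15.2 FPKM (10.6 to 19.8) in MHC and 14.98 FPKM (10.4 to 19.5) in Rbfox2 OE, were also among the lowest. Mrpl47 had 16.5 FPKM (0 to 45.4) and 11.5 FPKM (0 to 30.8). The order of the levels was much alike in the groups, with a Spearman rho of 0.87 and a Pearson r of 0.89 across the 77 genes on the log2 scale. These genes share libraries and are not independent replicates.

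Variants in several of these genes are known to cause inherited deficiency of oxidative phosphorylation in people. Of 9 such genes, 7 were lower (77.8%, beside 79.2% of the 77 and 53.8% of all expressed genes) and 2 higher. Their median log2 ratio was -0.63. Mrps22 and Mrpl12 had separate bounds (22.2%, beside 13.0% of the 77 and 9.33% of all expressed genes), a count too small to read a difference from. After centring or rescaling 6 were lower, since Mrps7 changed sign. Mrpl3, linked to inherited cardiomyopathy, had 81.7 FPKM (47.9 to 115) in MHC and 52.2 FPKM (30.0 to 74.3) in Rbfox2 OE, a log2 ratio of -0.64. Mrpl44, also linked to inherited cardiomyopathy, had 31.1 FPKM (19.1 to 43.0) and 25.6 FPKM (16.2 to 35.004). Mrps2 had 23.7 FPKM (16.5 to 31.0) and 14.6 FPKM (10.1 to 19.2), and Mrps16 had 91.1 FPKM (63.0 to 119) and 58.4 FPKM (40.1 to 76.7). Mrps7 had 44.1 FPKM in each group, and Mrps14 had 28.3 FPKM (17.8 to 38.7) and 30.5 FPKM (19.2 to 41.7). None of these 6 had separate bounds.

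Some proteins of the group are also known outside the ribosome. Mrps36 is now known as a component of the 2-oxoglutarate dehydrogenase complex of the citric acid cycle and was left out of both subunits above. It had 93.7 FPKM (64.8 to 123) in MHC and 74.3 FPKM (51.2 to 97.3) in Rbfox2 OE, a log2 ratio of -0.33. Mrpl41, linked to growth arrest and apoptosis, had 72.8 FPKM (50.5 to 95.1) and 54.0 FPKM (37.2 to 70.8). Mrps30, linked to apoptosis and placed in the large subunit despite its name, had 23.1 FPKM (16.02 to 30.2) and 20.7 FPKM (14.3 to 27.1). Mrps6, for which no such role is given here, had 35.4 FPKM (23.8 to 47.1) and 23.7 FPKM (14.6 to 32.9). It overlaps the annotated gene Slc5a3 and shares 17.3% of its 50-base sequences with other transcripts. The bounds of these 4 genes overlap.

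A set of 6 subunits of the mitochondrial ribosome carries other names and was not among the 77. All 6 were lower in Rbfox2 OE in the deposited values, with a median log2 ratio of -0.50, and 5 of the 6 after centring or rescaling, where Dap3 was higher. Ptcd3, a pentatricopeptide repeat protein of the small subunit, had 73.7 FPKM (43.2 to 104) in MHC and 21.1 FPKM (12.8 to 29.4) in Rbfox2 OE, a log2 ratio of -1.76 with separate bounds. Its ratio was below that of every one of the 77 genes except Mrps27, which belongs to the same repeat family. Ict1, a peptidyl-tRNA hydrolase of the large subunit that rescues stalled ribosomes, had a log2 ratio of -0.79, and Aurkaip1 and Chchd1, of the small subunit, had -0.55 and -0.46. Gadd45gip1, of the large subunit, had -0.31 and Dap3, a GTP-binding protein of the small subunit, -0.05. The bounds of the last 5 overlap.

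Of 25 factors that assemble the mitochondrial ribosome, 19 were lower, with a median log2 ratio of -0.45. Of these 25, 5 were 2-fold lower (20%, beside 10.02% of all expressed genes), 2 after rescaling and 1 with a pseudocount of 5 FPKM. Among all 11697 expressed genes, 913 were 2-fold lower after rescaling and 559 with that pseudocount. Separate bounds were found for 3 of the 25 (12%, beside 9.33%, a share near the background). Nsun4, an RNA methyltransferase that acts on the small ribosomal RNA and helps join the subunits, had 14.5 FPKM (10.04 to 19.04) in MHC and 1.23 FPKM (0.555 to 1.90) in Rbfox2 OE, a log2 ratio of -2.80. Fastkd2, an RNA-binding factor of large-subunit assembly, had 11.1 FPKM (7.60 to 14.7) and 3.25 FPKM (1.999 to 4.51). Mtg2, a GTPase of large-subunit assembly, had 18.0 FPKM (12.3 to 23.8) and 7.88 FPKM (5.20 to 10.6). Of 14 translation factors, 12 were lower and 3 were 2-fold lower (21.4%, beside 10.02% of all expressed genes), with 1 after rescaling. Gfm2, which recycles ribosomes, was alone among them in having separate bounds (7.14%, beside 9.33%), at 41.2 FPKM (27.5 to 54.9) and 16.6 FPKM (9.67 to 23.6). Tufm, the elongation factor that brings aminoacyl-tRNA to the ribosome, had 139 FPKM (98.4 to 180) and 182 FPKM (128 to 236) with overlapping bounds.

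The enzymes that charge mitochondrial tRNAs had a median log2 ratio of -0.79, the lowest of the mitochondrial gene lists compared. Of these 20 genes, 18 were lower (90%, beside 53.8% of all expressed genes), 8 were 2-fold lower (40%, beside 10.02%) and 6 had separate bounds (30%, beside 9.33%). The counts were 5 and 3 after rescaling, and 3 were 2-fold lower with a pseudocount of 5 FPKM. Among all 11697 expressed genes the like counts were 913 and 823 after rescaling, and 559 with that pseudocount. Sars2, the seryl-tRNA synthetase, had 8.99 FPKM (6.01 to 11.97) in MHC and 1.89 FPKM (1.08 to 2.70) in Rbfox2 OE, a log2 ratio of -1.79. Fars2, the phenylalanyl-tRNA synthetase, had 33.5 FPKM (23.4 to 43.5) and 10.5 FPKM (7.20 to 13.9). Qrsl1, a subunit of the enzyme that makes glutaminyl-tRNA, had a log2 ratio of -1.29, and Tars2 and Iars2, the threonyl- and isoleucyl-tRNA synthetases, had -1.25 and -1.04. Of 18 genes of mitochondrial RNA and DNA synthesis and RNA stability, 3 were 2-fold lower and had separate bounds (16.7%). The shares of all expressed genes were 10.02% and 9.33%. After rescaling 2 genes had separate bounds in the lower direction and 1 in the higher, and 1 was 2-fold higher. With a pseudocount of 5 FPKM 1 was 2-fold lower. The 3 genes that met both criteria in the deposited values were Lrpprc, Mterf2 and the helicase Supv3l1. Lrpprc, which stabilises mitochondrial mRNAs, had 61.4 FPKM (36.8 to 86.0) in MHC and 10.6 FPKM (6.11 to 15.2) in Rbfox2 OE. The log2 ratio was -1.25 for Mterf2 and -1.21 for Supv3l1. Polg2 had the highest ratio of the list, 0.92, with 1.28 FPKM (0.624 to 1.93) in MHC and 3.30 FPKM (1.75 to 4.85) in Rbfox2 OE. Its bounds overlap in the deposited values.

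Among 12 regulators of mitochondrial gene expression in the nucleus, 4 were 2-fold lower with separate bounds (33.3%) and 1 was higher with separate bounds. In all, 6 genes were lower and 6 higher, with a median log2 ratio of -0.0005, so the list as a whole was not lower. Of all expressed genes, 10.02% were 2-fold lower, and 9.33% were lower and 6.67% higher with separate bounds. Ppargc1a, a coactivator of mitochondrial genes, had 57.4 FPKM (32.3 to 82.5) in MHC and 20.3 FPKM (13.4 to 27.1) in Rbfox2 OE. Esrrg and Esrrb, nuclear receptors of the estrogen-related family, had log2 ratios of -2.58 and -1.06, and Perm1, a muscle regulator of the same pathway, had -1.06. Myc, a growth regulator, had 3.60 FPKM (2.14 to 5.06) and 10.7 FPKM (6.89 to 14.4). After rescaling, 2 genes of the list were 2-fold lower, and 4 lower and 1 higher had separate bounds. Among all 11697 expressed genes, 913 were then 2-fold lower, and 823 lower and 1020 higher had separate bounds.

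The products that this ribosome serves could be read only in part. Of the 15 genes of the mitochondrial genome in the list, 12 had no estimate and are listed at 0 in both groups. The large ribosomal RNA mt-Rnr2 had 8471 FPKM (6171 to 10770.4) in MHC and 5678 FPKM (4153 to 7203) in Rbfox2 OE, and the small ribosomal RNA mt-Rnr1 had 5996 FPKM (4399 to 7592) and 8574 FPKM (6296 to 10853). These RNAs of the same particle stood in opposite directions with overlapping bounds. mt-Nd3 had 25.7 FPKM (15.5 to 36.0) and 59.2 FPKM (38.7 to 79.7), with separate bounds.

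The nuclear-encoded respiratory chain had medians near that of the Mrpl and Mrps genes. Complex I, with 36 genes, had a median log2 ratio of -0.28, with 30 genes lower (83.3%), and 23 after rescaling (63.9%). Of all expressed genes 53.8% were lower, and 45.2% after rescaling. In complex I a single gene, Ndufs1, was 2-fold lower with separate bounds in the deposited values (2.78%), and neither after rescaling. The shares of all expressed genes were 10.02% and 9.33%. The 39 genes of complexes II to V had a median of -0.38, with 38 lower (97.4%), and 30 after rescaling (76.9%). Of these genes 1 was 2-fold lower (Sdha, 2.56%) and 3 had separate bounds (Sdha, Cox8b and Uqcrc1, 7.69%), 1 of them after rescaling. Genes of the cytosolic ribosome stood the other way. Of 82 with a mean of at least 1 FPKM, 80 were higher in Rbfox2 OE, beside 5408 of all 11697 expressed genes, with a median log2 ratio of 0.53. A single gene, Rps19, passed 2-fold, at 84.6 FPKM (58.1 to 111) and 173 FPKM (121 to 226), and 4 genes did after rescaling. Separate bounds were found for Rps19 alone, and for 8 of the 82 genes after rescaling. Of all expressed genes, 6.97% were 2-fold higher and 6.67% were higher with separate bounds in the deposited values. The summed level of the 77 mitochondrial genes was 0.231 of that of the cytosolic ones in MHC and 0.128 of it in Rbfox2 OE.

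**Figure D2:**
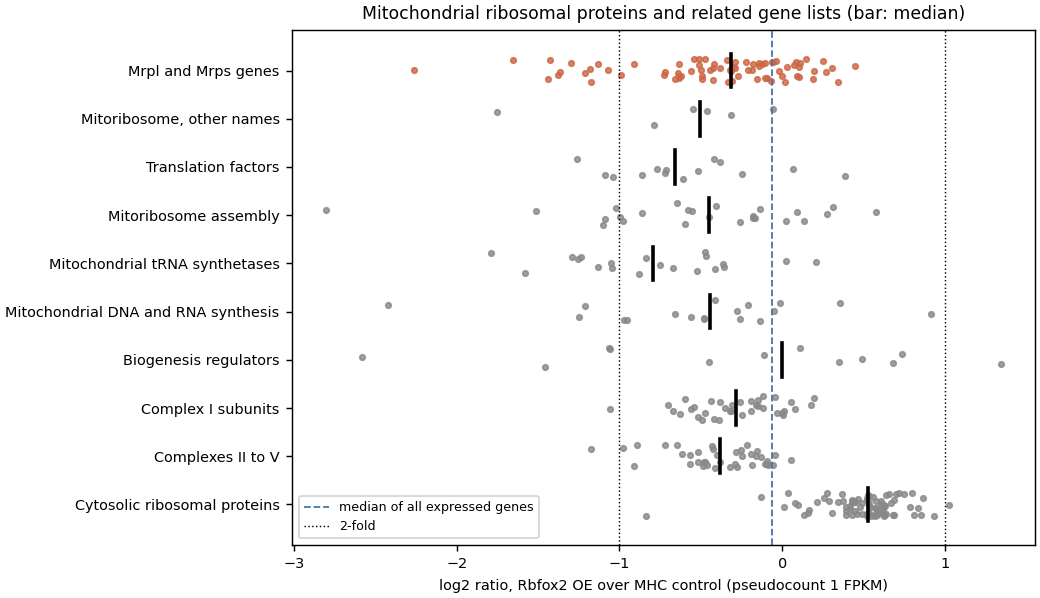
Log2 ratio of Rbfox2 OE over MHC (x axis) for each gene (points) of the Mrpl and Mrps genes and of related gene lists (rows), with a bar for each list's median, dotted lines at 2-fold and a dashed line at the median of all expressed genes. The Mrpl and Mrps genes centre on -0.31 and the cytosolic ribosomal proteins on 0.53, and the mitochondrial tRNA synthetases on -0.79.

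Many of these genes share a start region with a neighbour on the other strand. A protein-coding neighbour that starts within 1000 bases in the opposite direction was annotated for 33 of the 77 genes (42.9%), beside 1817 of 11093 expressed protein-coding genes (16.4%). The promoters of Mrps27 and Mrps12, whose neighbours differed most among pairs with separate loci, and that of Mrpl12, the most abundant gene with separate bounds, are printed here from RefSeq (GRCm38.p6). Each runs from 250 bases before to 50 bases after the start, 5′ to 3′ on the gene's strand. The capitals mark matches, on either strand, to letters of the motifs of ETS factors, YY1 and NRF1 described below.
Mrps27 (chr13:99344536-99344835, plus strand): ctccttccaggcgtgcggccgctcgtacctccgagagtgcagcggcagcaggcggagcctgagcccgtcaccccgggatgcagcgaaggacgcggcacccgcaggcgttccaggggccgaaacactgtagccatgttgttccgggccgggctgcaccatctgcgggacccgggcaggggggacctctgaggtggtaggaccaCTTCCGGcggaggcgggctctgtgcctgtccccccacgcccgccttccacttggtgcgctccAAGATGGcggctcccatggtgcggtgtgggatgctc
Mrps12 (chr7:28741772-28742071, minus strand): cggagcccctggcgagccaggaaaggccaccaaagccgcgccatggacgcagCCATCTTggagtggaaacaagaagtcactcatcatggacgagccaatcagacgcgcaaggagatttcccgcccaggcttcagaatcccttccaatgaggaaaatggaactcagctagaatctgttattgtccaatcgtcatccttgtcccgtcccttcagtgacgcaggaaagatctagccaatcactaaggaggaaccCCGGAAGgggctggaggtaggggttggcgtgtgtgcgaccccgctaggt
Mrpl12 (chr11:120484387-120484686, plus strand): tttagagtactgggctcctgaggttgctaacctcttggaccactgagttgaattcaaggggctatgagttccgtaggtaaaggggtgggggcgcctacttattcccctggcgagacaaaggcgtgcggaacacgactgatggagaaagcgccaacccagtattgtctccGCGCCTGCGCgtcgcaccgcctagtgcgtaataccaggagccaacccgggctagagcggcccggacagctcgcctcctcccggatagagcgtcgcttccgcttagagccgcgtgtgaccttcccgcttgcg

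Mrps27 starts 81 bases from Ptcd2, another mitochondrial pentatricopeptide repeat protein. Ptcd2 had 31.3 FPKM (21.8 to 40.9) in MHC and 10.8 FPKM (7.27 to 14.3) in Rbfox2 OE, a log2 ratio of -1.46. Both genes of this pair thus had separate bounds in the same direction. Mrps12, a conserved protein of the decoding site, starts 172 bases from Sars2 and had 53.3 FPKM (36.8 to 69.8) and 31.8 FPKM (21.5 to 42.1), a log2 ratio of -0.73 with overlapping bounds, while Sars2 had -1.79. Mrpl50 starts 83 bases from Zfp189, which stood at -0.86 on the log2 scale, with separate bounds. Mrpl54 starts 26 bases from Apba3, which had -1.37 with separate bounds, beside -0.51 for Mrpl54 itself.

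Across the 26 distinct pairs whose partner had a mean of at least 1 FPKM, 20 had both genes on the same side of 0 (76.9%), 17 of them lower and 3 higher, beside 411 of 735 divergent pairs of all expressed genes (55.9%). The 735 pairs are not a like baseline. Of the 77 genes 79.2% were lower, and the median log2 ratio of the partners was -0.415. When both sides are mostly lower, more pairs share a sign, and a link between neighbours was not tested. Of the 26, 12 lie in 1 locus of the table, where fragments may be shared, and 9 of these had the same sign. In the 14 pairs with separate loci, 11 had the same sign. The Spearman rho of the log2 ratios over the 26 pairs was 0.65 and the Pearson r was 0.62, as a description of pairs that share libraries, and over the 735 pairs the rho was 0.12. Mitd1 (log2 ratio 1.10) beside Mrpl30 and Ppp1r10 (1.05) beside Mrps18b were the 2 partners that were 2-fold higher, and neither had separate bounds.

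**Figure D3:**
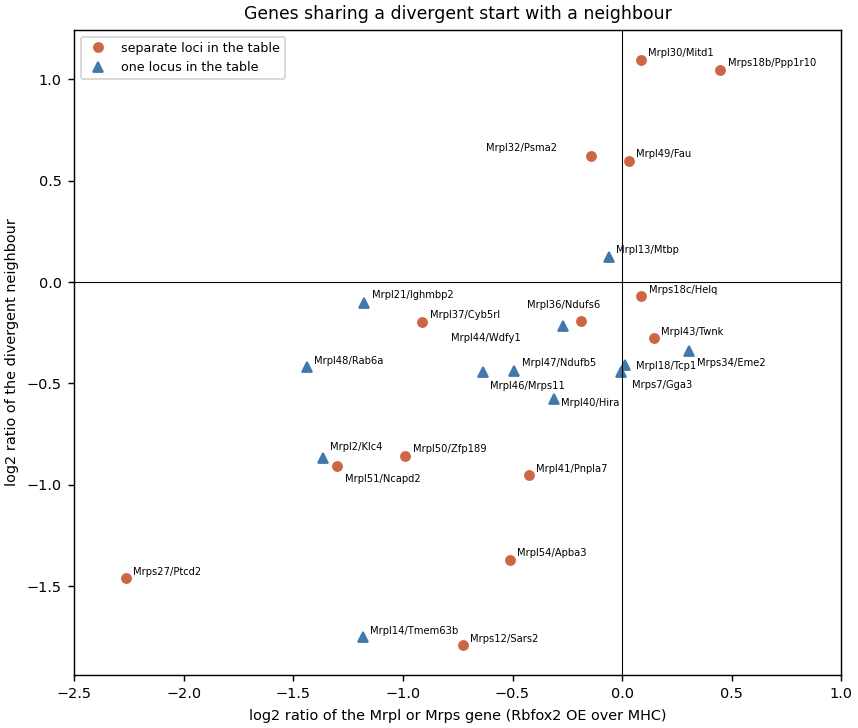
Log2 ratio of Rbfox2 OE over MHC of each Mrpl or Mrps gene (x axis) against that of its divergent protein-coding neighbour (y axis) for 26 pairs, with circles for pairs given separate loci in the table and triangles for pairs in 1 locus. Most pairs, 17 of 26, lie in the lower left part, with Mrps27 and Ptcd2 farthest to the left.

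Promoter letters were searched on both strands in the 68 of the 77 genes that matched the RefSeq promoter table, with overlapping matches allowed. The letters CCGGAAG, the core bound by ETS factors such as GABP, were in 25 promoters (36.8%), beside 20.5% of 8559 expressed protein-coding genes and 9.93% of all 27025 promoters. The letters AAGATGG, a part of the YY1 motif, were in 13 (19.1%), beside 8.60% and 7.28%. The letters of NRF1, which are GCGC, any 2 bases and GCGC again, were in 14 (20.6%), beside 15.5% and 6.997%. At least 1 of the 3 was in 43 promoters (63.2%), beside 38.1% of expressed genes. These shares were not tested. The median log2 ratio was -0.22 with and -0.31 without the ETS letters, -0.14 and -0.31 for YY1, and -0.30 and -0.31 for NRF1.

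RBFOX proteins bind the letters GCAUG in RNA, often as UGCAUG, written TGCATG in DNA. This hexamer was searched on the sense strand of the 3′ UTR of the longest coding transcript of each gene in the GENCODE M21 annotation. It was present in 18 of the 77 genes (23.4%), beside 34.9% of 11082 expressed protein-coding genes. The 3′ UTRs were short, with a median of 327 bases beside 1138.5 bases, and the hexamer occurred 3.94 times per 10 kb of 3′ UTR in the 77 genes and 3.51 times in all. Among UTRs of 100 to 1000 bases, 3 of 47 genes (6.38%) held it, beside 13.6% of 4634. Length still differed within this range, with a median of 284 bases beside 471 bases. The 18 genes had a median log2 ratio of -0.22, with 13 lower and 5 higher, and the genes without it had -0.31. Of the 18, 4 were 2-fold lower (22.2%) and 3 had separate bounds (16.7%), beside 11.1% and 10.1% of the 3871 expressed genes that hold the hexamer, counts too small to read a difference from. The windows of 30 bases around the hexamer (capitals) are shown for 3 genes with low ratios and, for contrast, for Mrpl17, whose ratio was among the highest and whose UTR holds 4 hexamers, of which the first is shown.
Mrps27 (hexamer at chr13:99415281-99415286, plus strand): cccttggccatgTGCATGgagcaccgagct
Mrps35 (hexamer at chr6:147073802-147073807, plus strand): gcagtgctattaTGCATGtatacacacaca
Mrpl50 (hexamer at chr4:49513611-49513616, minus strand): agaccttccttcTGCATGggttctgcccac
Mrpl17 (hexamer at chr7:105809075-105809080, minus strand): cttaccaccacaTGCATGcaccctattgtc
A match of letters is a description of the annotated sequence and not of binding.

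Genes with a long genomic span tended to have lower ratios. Of the 77 genes, 7 span over 50 kb (Mrpl1, Mrpl33, Mrpl48, Mrps6, Mrps9, Mrps27 and Mrps28). All 7 were lower, with a median log2 ratio of -0.56, and 3 were 2-fold lower. The other 70 had a median of -0.30, with 9 genes 2-fold lower. In the whole table, 3147 expressed genes over 50 kb had a median of -0.20 with 15.4% 2-fold lower, and 8532 shorter genes had -0.01 with 8.01%. The Spearman rho between log2 ratio and span was -0.30 across the 77 genes and -0.16 across 11679 annotated genes, that with the number of exons was -0.29 and -0.15, and that with transcript length was -0.07 and -0.06. Genes share libraries, and the part of span in the ratios was not tested.

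**Figure D4:**
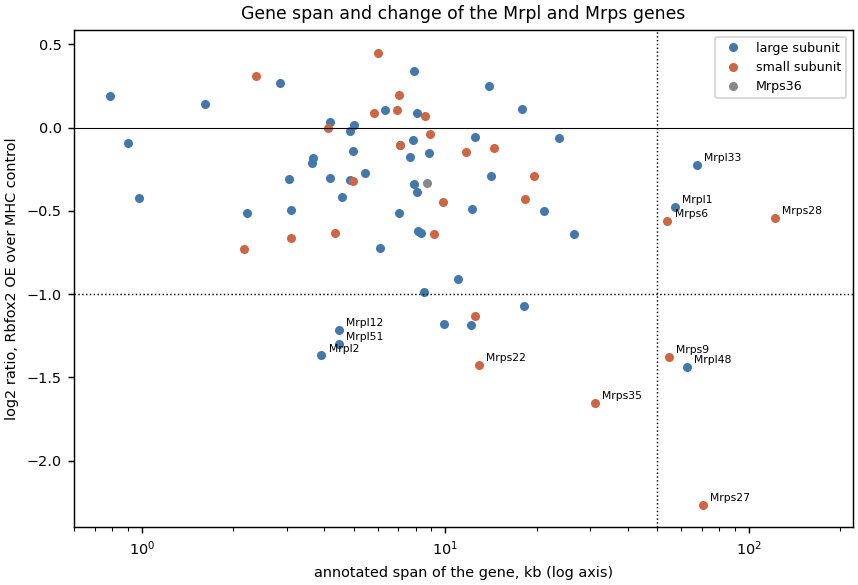
Log2 ratio of Rbfox2 OE over MHC (y axis) against genomic span in kb (x axis, log scale) for the 77 Mrpl and Mrps genes, each point 1 gene coloured by subunit, with dotted lines at 50 kb and at 2-fold lower. The 7 genes beyond 50 kb all lie below 0, with Mrps27 the lowest at -2.26.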

How the data were processed

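The 4 cardiomyocyte libraries, 2 in each group, were made with a stranded TruSeq kit, per the labels. The values are FPKM, made by the authors with Cuffdiff and deposited as 1 value per gene and group with bounds and a status, so neither depth nor replicate spread is known. The bounds are also FPKM, per the file headers. The submitters' processing notes name bcl2fastq 2.17.1.14, Trimmomatic, STAR 2.4.2a, Picard 1.119, HTSeq, DESeq2, Cuffdiff 2.2.1 and the builds GRCm38 and mm10, with no order. The annotation, the normalization mode and the use of strand are not given in the sources used here. Of the 77 genes, 41 overlap another annotated gene, 35 of them on the opposite strand, and 18 share over 5% of their 50-base sequences with other transcripts.

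Log2 ratios were computed with Python 3.11.15, pandas 2.3.3, numpy 2.4.6 and scipy 1.17.1, over the 11697 genes whose mean level was 1 FPKM or more. A pseudocount of 1 FPKM was added, so the differences of low genes are understated. Figures were drawn with matplotlib 3.10.9. Rows that share 1 of 110 names were summed. Coordinates, transcripts and UTRs come from GENCODE M21 on GRCm38, and promoters from RefSeq on GRCm38.p6. The calculations were checked on simulated data. A test on values per library was planned and could not be run, because the table gives 1 value per group. Genes named are the 5 highest and 5 lowest ratios, all genes with separate bounds (up to 15), the 5 highest and 5 lowest mean levels, subunits with other names, the paralogs of Mrps18, genes of disease or of roles outside the ribosome, and up to 5 genes with separate bounds of each related list. Members of pairs, windows and examples of overlapping bounds were chosen after their values were seen. The genes and the lists were chosen with earlier results of these data known. Alternatives covered the pseudocount, the filter, scaling, status, repeated names, shared loci, the threshold and the mean.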

Additional observations from a re-analysis of the deposited data

How the results depend on the processing

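The median log2 ratio of the 77 genes was -0.31 as reported and stayed below 0 under every alternative run. It was -0.17 after rescaling and -0.41 as a mean. The count of Mrpl and Mrps genes 2-fold apart, 12 as reported, was 10 to 13 under other pseudocounts and scalings, 3 in loci given to 1 gene, 22 at 1.5-fold and 1 at 4-fold. The count with separate bounds, 10 as reported, was 8 after centring, 6 after rescaling and 4 in loci given to 1 gene. Fewer genes are compared in the last setting, 38 of 77. Of all expressed genes, 1987 were 2-fold apart, and 863 with a pseudocount of 5 FPKM, 983 in loci given to 1 gene, 4520 at 1.5-fold and 290 at 4-fold. Of these genes, 1871 had separate bounds, and 1125 in loci given to 1 gene. Of the 77 genes, 12 changed sign after rescaling and 5 after centring, all with ratios near 0. The 14 genes that were 2-fold lower or had separate bounds kept their sign, which the shift of 0.16 on rescaling could not have turned. No paired analysis was possible because both libraries of a group share 1 deposited value, and leaving out each library could not be run for the same reason. The bounds lay a median of 32.7% of the level away from it in MHC and 35.2% in Rbfox2 OE, which limits what the bounds can separate.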

Other observations

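The names with -ps that the choice of genes left out had low values. Mrpl48-ps had 2.71 FPKM (bounds 1.33 to 4.10) in MHC and 0.768 FPKM (bounds 0.204 to 1.33) in Rbfox2 OE, bounds that are separate by a hair, in the direction of Mrpl48, which shares 5.41% of its 50-base sequences with other transcripts, most with this pseudogene. Mrps36-ps1 had 1.27 FPKM (0 to 2.57) and 0.593 FPKM (0 to 1.43), and Mrps36-ps2 had 0.451 FPKM (0 to 2.23) and 0.188 FPKM (0 to 1.42). Mrpl23-ps1 had 0.542 FPKM (0.0606 to 1.02) and 0.831 FPKM (0.213 to 1.45). The bounds of these 3 overlap. Mrps36-ps3 is listed at 0 in both groups. Mrpl53 shares 82.0% of its 50-base sequences with other annotated transcripts, most with Gm42688, and had 61.0 FPKM (41.7 to 80.4) in MHC and 57.1 FPKM (38.9 to 75.4) in Rbfox2 OE.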
